A study of Mus musculus with 426 samples.

Results

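The immediate early genes Fos, Fosb, Jun, Junb, Egr1, Atf3, Ier2, Dusp1, Zfp36 and Klf4 were followed across the sorted single cells of a mouse pancreatic tumour model. They are the 10 rows of the RNA file with these symbols, of 24424 genes used, and all 10 passed the filter on low counts in each fit. The members were chosen by symbol from a list drawn up with their CPM levels by sort and site already known, so those levels and the p-values beside them are a description and support nothing further. RNA and genomic DNA had been amplified from each cell in a single tube. The hosts were male C57BL/6 mice, 6 to 8 weeks old, and each received 50000 KPC1199-EGFP cells in the pancreas. KPC1199-EGFP cells are a mouse line of pancreatic cancer marked with green fluorescent protein (GFP), and the tumours grew for 6 to 8 weeks. Primary tumours of 3 mice gave GFP+ cells, EpCAM+ cells (EpCAM is a surface protein of epithelial cells), GFP+EpCAM+ cells and CD45+ cells (CD45 is the surface protein shared by leukocytes). Metastases gave GFP+ cells too: those of the peritoneum in all 3 mice, those of kidney, liver and spleen in mice 2 and 3. All tumours come from 1 injected line, in hosts that keep their own leukocytes and stroma. The labels do not state whether the EpCAM+ sort left out GFP+ cells.

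Immediate early genes are transcribed within minutes of a growth factor, stress or wounding signal, without new protein synthesis. MAP kinases activate factors already bound at their promoters, among them serum response factor with its partners and CREB or ATF proteins. Fos, Fosb, Jun and Junb encode subunits of the transcription factor AP-1, Atf3 a related leucine zipper protein, and Egr1 and Klf4 zinc finger transcription factors. Ier2 encodes a small nuclear protein. Dusp1 encodes a phosphatase that switches MAP kinases off, and Zfp36 encodes tristetraprolin, which binds AU-rich messenger RNAs and speeds their decay. The genes are also known to respond to enzymatic dissociation of tissue. Per the labels, the primary tumours were dissociated with collagenase D and trypsin, and no undissociated tissue was analysed here.

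RefSeq promoter sequence of build GRCm38.p6 was matched for 8 of the 10 genes, and the 150 bases before the start site of 4 genes that the results turn on are shown 5′ to 3′ on the gene's strand. Capitals mark matches to the motifs searched, on either strand: TGACGTCA (the full CREB or ATF site), TGACG (its shorter form, which the full site contains), TATAAA and the CArG box, the site of serum response factor.
Fos, chr12:85473740-85473889, plus strand: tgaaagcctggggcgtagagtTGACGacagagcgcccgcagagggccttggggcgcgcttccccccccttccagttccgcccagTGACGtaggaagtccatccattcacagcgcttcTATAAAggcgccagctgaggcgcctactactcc
Junb, chr8:84978749-84978898, minus strand: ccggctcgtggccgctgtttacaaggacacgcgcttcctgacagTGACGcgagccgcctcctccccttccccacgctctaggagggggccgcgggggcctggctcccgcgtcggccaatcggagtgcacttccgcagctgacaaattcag
Dusp1, chr17:26508473-26508622, minus strand: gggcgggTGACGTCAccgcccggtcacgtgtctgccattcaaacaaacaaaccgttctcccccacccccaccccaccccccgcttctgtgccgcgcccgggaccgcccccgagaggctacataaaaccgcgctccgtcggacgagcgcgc
Zfp36, chr7:28379229-28379378, minus strand: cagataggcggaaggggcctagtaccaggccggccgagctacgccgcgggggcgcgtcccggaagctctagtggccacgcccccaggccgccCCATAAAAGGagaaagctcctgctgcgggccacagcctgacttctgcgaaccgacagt
Over the 250 bases before the start site, TGACG was present in 6 of the 8 promoters (Atf3, Dusp1, Fos, Fosb, Junb and Klf4), against 17.8% of 32851 promoters. The full TGACGTCA was found in Dusp1 (1.55% of promoters), the CArG box in Zfp36 (1.47%) and TATAAA in Fos (12.4%). The AP-1 site TGANTCA was in none of the 8 (6.75% of promoters). The 8 windows had a GC content of 58.4% to 74%, against a median of 52.4% over all promoters. The shares of all promoters were not matched for GC content. A match describes the letters of the window and is not evidence of binding.

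Of 420 single-cell libraries, 2 pairs from the peritoneum of mouse 1 differed by less than sampling noise in their DNA counts, though not in their RNA counts, and were counted as 1 cell each. RNA was used from 368 of the resulting 418 cells, those with at least 500 detected genes and 10000 counts (10805 to 17845616 counts, median 1016776). From primary tumours, 76 of these were GFP+, 25 EpCAM+, 31 GFP+EpCAM+ and 56 CD45+, and the sites gave 85 (peritoneum), 44 (kidney), 16 (liver) and 35 (spleen). Levels are CPM, the counts summed over the cells of a mouse and group and scaled to a total of 1000000, and the mouse is the replicate. In a sum, fewer cells with the RNA and less RNA per cell cannot be told apart, and 1 cell can carry much of it: the richest cell gave 11.7% to 98.5% of a gene's counts in a sum (median 45.8% over the 210 sums). Defining markers followed the sorts in most groups. Ptprc (CD45) stood at 160 to 461 CPM in CD45+ cells and at or below 5.82 CPM in the other primary sorts. Epcam stood at 427 to 1679 CPM in EpCAM+, 561 to 1215 CPM in GFP+EpCAM+ and 11.4 to 25.1 CPM in GFP+ cells. The GFP+ primary cells held 296 to 1649 CPM of the collagen gene Col1a1, and the hepatocyte marker Alb was at or below 0.301 CPM in liver cells. Exceptions stood among the GFP+ cells of the sites. The macrophage gene Lyz2 ran from 7.20 to 2830 CPM in the kidney and from 1.06 to 402 CPM in the peritoneum. Epcam ran from 0.49 to 1465 CPM in the peritoneum.

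The AP-1 subunits were present in every group. Fos stood at 3414, 6010 and 1383 CPM in GFP+ cells of mice 1, 2 and 3, and at 3191, 9514 and 4285 CPM in EpCAM+ cells. GFP+EpCAM+ cells held 5058, 5344 and 2339 CPM of Fos, and CD45+ cells 3306, 1025 and 1843 CPM. These ranges overlapped in all 4 primary sorts. In metastases Fos stood at 472, 1736 and 1389 CPM in the peritoneum, and at 781 and 4737 CPM in the kidney, 709 and 730 CPM in the liver and 2151 and 951 CPM in the spleen of mice 2 and 3. Both liver values lay below all 3 primary GFP+ values, as 22.3% of 8909 genes also lay apart there. Fosb had group means from 137 ± 72.9 CPM (SD, n = 3 mice) in the peritoneum to 293 ± 113 CPM (SD, n = 3 mice) in GFP+EpCAM+ cells. Every pair of neighbouring groups in its order of means overlapped.

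Jun and Junb, which encode partner subunits of Fos, split by mouse. Jun stood at 72.9, 3490 and 1421 CPM in GFP+ cells of mice 1, 2 and 3, and at 39.7, 1222 and 1338 CPM in the peritoneum. In both groups mouse 1 lay far below the other mice. CD45+ cells had the lowest mean of all groups for Jun, with 5.84, 94 and 121 CPM. EpCAM+ cells held 380, 418 and 471 CPM, and GFP+EpCAM+ cells 406, 880 and 624 CPM. Junb stood at 107, 1696 and 1423 CPM in GFP+, 15.9, 2624 and 1253 CPM in EpCAM+, and 152, 3024 and 1805 CPM in GFP+EpCAM+ cells of mice 1, 2 and 3. CD45+ cells held 181, 2916 and 5458 CPM of Junb and peritoneum cells 23.7, 794 and 1515 CPM. Mouse 1 held the least Junb in all 5 groups that have 3 mice, and its highest value (181 CPM) was below the lowest of mice 2 and 3 there (794 CPM). In mice 2 and 3 the kidney held 526 and 2757 CPM of Jun and 916 and 2299 CPM of Junb, the liver 472 and 530 CPM of Jun and 714 and 493 CPM of Junb, and the spleen 1771 and 1175 CPM of Jun and 1812 and 787 CPM of Junb.

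Among the other transcription factors, Egr1 was found in 97.6% to 100% of the cells of every group at full depth. Levels of Egr1, Atf3 and Klf4 all differed by sort or mouse. Egr1 stood at 3241, 17905 and 8000 CPM in GFP+, 2813, 8340 and 10281 CPM in EpCAM+ and 3151, 15360 and 6810 CPM in GFP+EpCAM+ cells of mice 1, 2 and 3. CD45+ cells held 294, 4593 and 1088 CPM and peritoneum cells 369, 6180 and 5432 CPM, again lowest in mouse 1. In mice 2 and 3 Egr1 stood at 5244 and 6897 CPM in the kidney, 11879 and 5225 CPM in the liver and 6303 and 4327 CPM in the spleen. Atf3 stood at 216, 106 and 241 CPM in GFP+ cells, at 434, 5053 and 4220 CPM in EpCAM+ cells and at 638, 1308 and 2110 CPM in GFP+EpCAM+ cells. Both EpCAM sorts lay above GFP+ cells in 3 of 3 mice without overlap. Groups lay apart, in either direction, for 14.3% of 8909 genes in EpCAM+ and 13% in GFP+EpCAM+ cells. CD45+ cells held 200, 56.3 and 10.2 CPM of Atf3, peritoneum cells 170, 155 and 189 CPM, and the kidney cells of mice 2 and 3, which lay above all primary GFP+ values, 510 and 444 CPM (16.9% of genes lay apart there). In the liver Atf3 split by mouse, with 921 and 76.5 CPM, and the spleen held 125 and 49.9 CPM. The 2 high EpCAM+ values rest on few cells: 1 cell gave 92% of the Atf3 counts of mouse 2 and 1 cell 72.3% of those of mouse 3. Klf4 went the other way by mouse: it stood at 151, 5.66 and 7.92 CPM in GFP+ cells, at 524, 54.6 and 52.6 CPM in GFP+EpCAM+ cells and at 488, 80.2 and 24.5 CPM in CD45+ cells, highest in mouse 1 each time. In EpCAM+ cells it stood at 306, 411 and 4.55 CPM, highest in mouse 2.

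Ier2 stood at 389, 2157 and 719 CPM in GFP+ cells of mice 1, 2 and 3. CD45+ cells held 26.5, 174 and 109 CPM, without overlap, as 28% of 8909 genes also lay apart between these sorts. GFP+EpCAM+ cells held 836, 755 and 688 CPM of Ier2 and EpCAM+ cells 417, 394 and 223 CPM. The MAP kinase phosphatase gene Dusp1 was even across the GFP+ primary cells of the 3 mice, at 2260, 2047 and 1903 CPM. It was less even in the other primary sorts, at 7890, 1734.5 and 2190 CPM in GFP+EpCAM+ cells of mice 1, 2 and 3. The values were 2878, 1536 and 5042 CPM in EpCAM+ cells. For CD45+ cells Dusp1 was at 1777, 853 and 5330 CPM. It stood at 321, 750 and 690 CPM in the peritoneum of mice 1, 2 and 3, and in mice 2 and 3 at 977 and 1100 CPM in the kidney, 1191 and 233 CPM in the liver and 721 and 547 CPM in the spleen. All 9 metastasis values of Dusp1 lay below all 3 primary GFP+ values. Groups of mice lay apart in this way for 8.28% of 8909 genes in the peritoneum, 16.9% in the kidney, 22.3% in the liver and 17.8% in the spleen, and for 1, 2, 2 and 1 of the 10 members. Zfp36 stood at 256, 2537 and 1402 CPM in GFP+ primary cells and at 4.16, 322 and 893 CPM in the peritoneum. It stood at 603, 1440 and 3422 CPM in CD45+ and 29, 2144 and 1069 CPM in EpCAM+ cells, lowest in mouse 1 in every case.

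**Figure D1:**
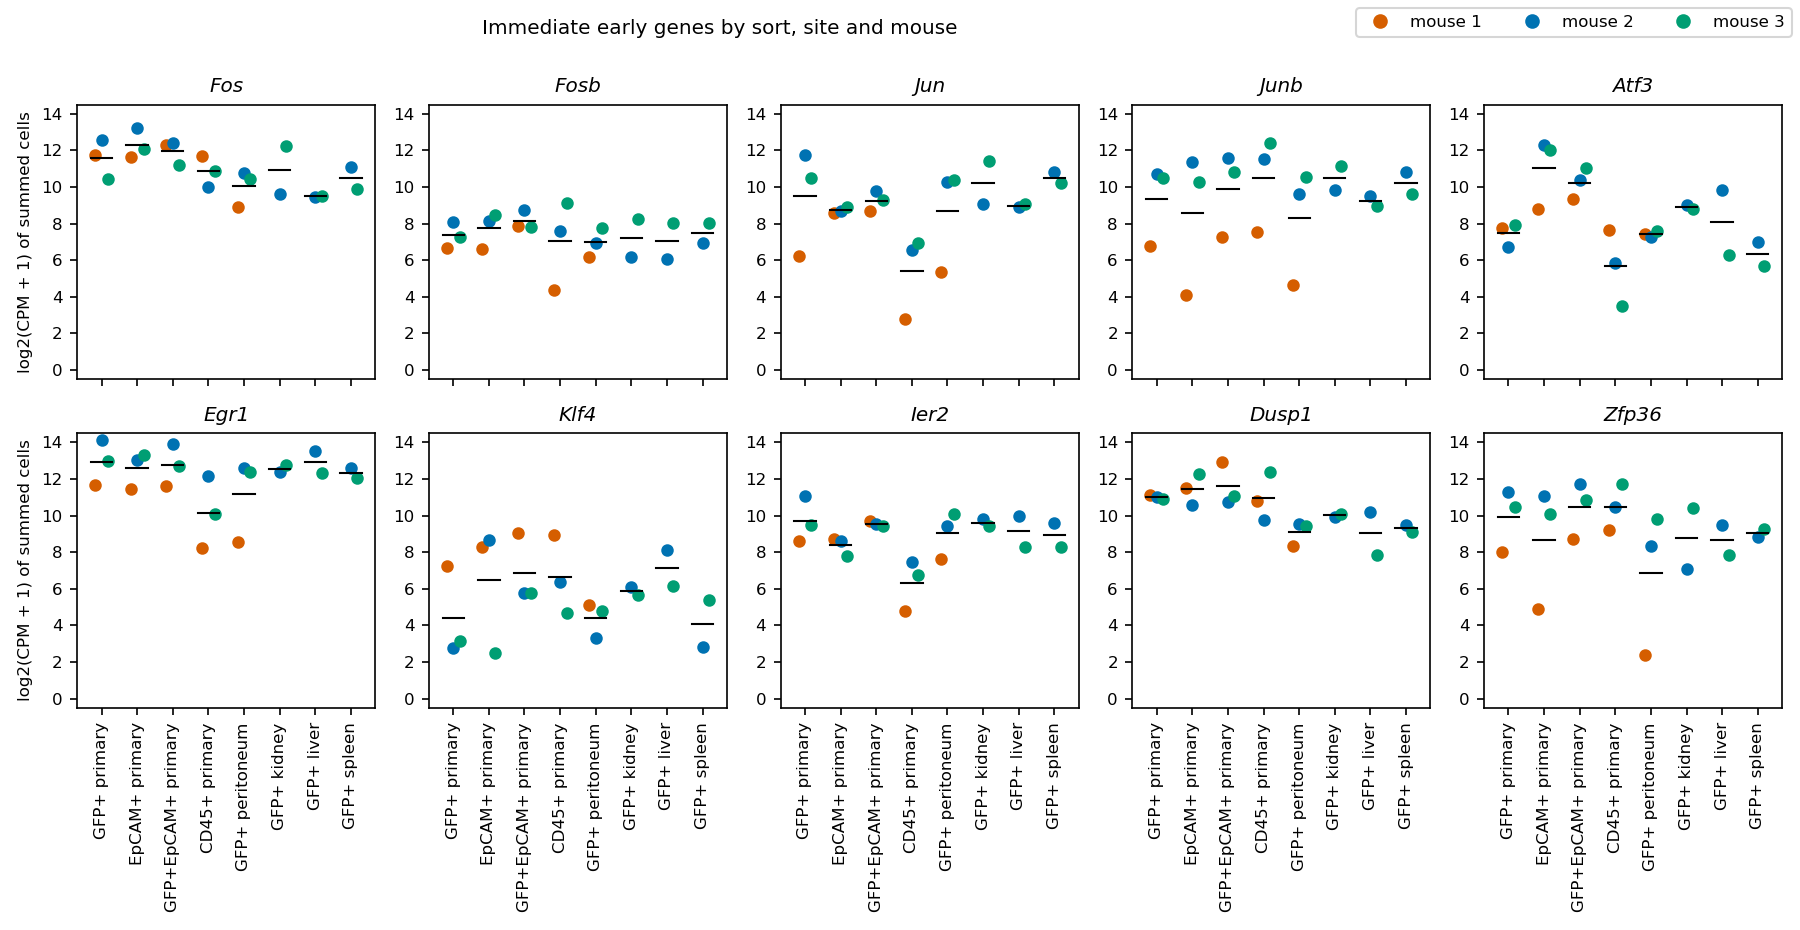
Levels of the 10 genes as log2(CPM + 1) of the counts summed per mouse, by sort and site; each point is a mouse and each bar the mean of the points. Junb, Egr1 and Zfp36 of mouse 1 lie below those of mice 2 and 3 in each group with 3 mice, while Dusp1 of GFP+ primary cells lies together at 1903 to 2260 CPM.

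Primary CD45+ cells were set against primary GFP+ cells, that is, leukocytes against cells sorted for the marker of the injected line. Jun, Ier2 and Egr1 had the smallest p-values of the 10 genes. Jun differed by -4.27 on the log2 scale (SE 1.31, edgeR adjusted p = 0.110), Ier2 by -3.17 (SE 1.13, adjusted p = 0.160) and Egr1 by -2.04 (SE 0.89, adjusted p = 0.236). No member passed edgeR's quasi-likelihood test (0 of 10, against 0.817% of 19703 genes called, 0.629% higher and 0.188% lower), while these 3 had an unadjusted p under 0.05, as did 3415 of all genes. With the mouse as a block, which these samples of the same animals allow, Egr1 was lower in CD45+ cells (log2 difference -2.53, SE 0.62, edgeR adjusted p = 0.0469, 1 of 10 members against 0.203% of genes called lower). With each cell weighted alike and log2(CPM+1), limma called 4 members lower (and 778 genes in all): Fos (-2.88), Jun (-3.74), Egr1 (-3.93) and Ier2 (-4.08). The groups of mice did not overlap for 1 member, Ier2, against 28% of 8909 genes with a mean of at least 10 CPM.

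Atf3 led both comparisons of the EpCAM sorts with GFP+ cells. Its log2 difference was 3.95 (SE 1.05, edgeR adjusted p = 0.343) in EpCAM+ and 3.20 (SE 1.01, edgeR adjusted p = 0.275) in GFP+EpCAM+ cells. DESeq2 called Atf3 in both (4.66, adjusted p = 0.00216, among 877 genes called, and 3.56, adjusted p = 0.0278, among 871), and over the alternatives tried the adjusted p ran up to 0.937 and 0.736. Leaving out the cell with the most total counts in each sum, which need not be the cell richest in Atf3, gave 3.78 and 3.47. In edgeR no member and no gene passed in either comparison (0 of 10, against 0% of genes called), and 1 member, Atf3, had an unadjusted p under 0.05 in each, as did 2256 and 2002 of 19703 genes. Atf3 was the only member whose groups did not overlap, against 14.3% of genes for EpCAM+ and 13% for GFP+EpCAM+ cells. Klf4 followed in GFP+EpCAM+ cells, with 2.89 (SE 1.56, adjusted p = 0.582). Between EpCAM+ and GFP+EpCAM+ cells 9 of 10 members had negative differences, and the lowest adjusted p was 0.459 (Ier2, -1.77, 0 of 10 called, against 0% of genes).

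GFP+ cells of each metastatic site were set against primary GFP+ cells, and most members had negative differences, with calls that depended on whether the mouse entered the fit. Without the mouse, 0 of 10 members passed edgeR at any site, against 0.0091% of 21988 genes called for peritoneum, 0% for kidney, 0.0136% for liver (0.00455% higher) and 0% for spleen. Unadjusted p-values were under 0.05 for 4 of 10 members in the peritoneum (1341 of 21988 genes), 2 in the liver (3130 genes, a like share) and none in kidney or spleen (1321 and 1355 genes). The differences were negative for 10 of 10 members in the peritoneum (median -1.40, against 0.08 over all genes), 8 in the kidney (median -0.69, against -0.10), 8 in the liver (median -1.55, against -0.61) and 9 in the spleen (median -1.01, against 0.01). For the mean of the 4 sites, Zfp36 differed by -2.02 (SE 0.78, edgeR adjusted p = 0.263), Fos by -1.70 (SE 0.66, adjusted p = 0.265) and Dusp1 by -1.76 (SE 0.70, adjusted p = 0.292), and 0 of 10 passed against 1.5% of genes (1.48% lower). Leaving out mouse 2 gave -2.95 for Dusp1 (edgeR adjusted p = 0.00576), and leaving out the cell with the most counts in each sum gave -2.51 for Zfp36 (edgeR adjusted p = 0.0352). The sites share the primary cells as their control, so their values are not independent of each other.

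With the mouse as a block, 4 of 10 members were lower in the mean of the 4 sites, against 0.628% of genes called lower. The log2 differences were -2.04 for Egr1 (SE 0.42, edgeR adjusted p = 0.00178), -3.22 for Zfp36 (SE 0.68, adjusted p = 0.00238), -2.50 for Dusp1 (SE 0.60, adjusted p = 0.012) and -2.06 for Fos (SE 0.54, adjusted p = 0.0322). Over the main fit and 12 alternatives all 4 stayed negative but varied in size. Egr1 ran from -2.04 to -0.05, Zfp36 from -3.22 to -0.60, Dusp1 from -2.95 to -1.09 and Fos from -2.06 to -0.74. For Egr1, Zfp36 and Fos the block gave the largest difference of all settings. The adjusted p of each of the 4 genes ran up to 0.9997 over these fits (edgeR, DESeq2 and limma). In the liver the log2 differences with the block were -3.51 for Fos (SE 0.85, adjusted p = 0.0161) and -3.28 for Jun (SE 0.89, adjusted p = 0.0467), or 2 of 10 members against 0.323% of genes called lower. The difference of Jun turned positive with each cell weighted alike (0.94 at log2(CPM+1)). In the liver sum of mouse 2, 1 cell gave 98% of the Jun counts and 1 cell 87.1% of the Fos counts. The liver sum of mouse 3 had 284 counts of Jun and 391 of Fos. The peritoneum (0 of 10, 0.0273% of genes lower), kidney (0.0091%) and spleen (0%) had none called with the block. Dusp1 was lower in 9 of 9 comparisons of a site with the primary tumour within a mouse, 3 in the peritoneum and 2 at each other site. This follows from its levels given above, where no site value reached a primary GFP+ value. The comparisons of a mouse share its primary sum. Fos was lower in 2 of 3 mice in the peritoneum, in 1 of 2 in the kidney and in 2 of 2 in liver and spleen. Marker lists moved with the mean of the sites in the fit without the mouse. Fibroblast markers were negative for 10 of 10 genes (Postn and Lum lower) and heat shock genes for 11 of 11 (none called). Macrophage markers were positive for 8 of 10 (median 3.46), but the 1 that was called, Cd68, was lower. The part of these lists in the members' differences was not tested. Mouse 1 has no kidney, liver or spleen cells, and 1 cell gave 75.3% of the counts of the liver sum of mouse 2. Per the labels dissociation is described for primary tumours, and the handling of metastases is not described, so site and handling cannot be told apart. Sites were also set against each other, and none of 60 tests passed (smallest edgeR adjusted p = 0.426, with 1 unadjusted p under 0.05).

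**Figure D2:**
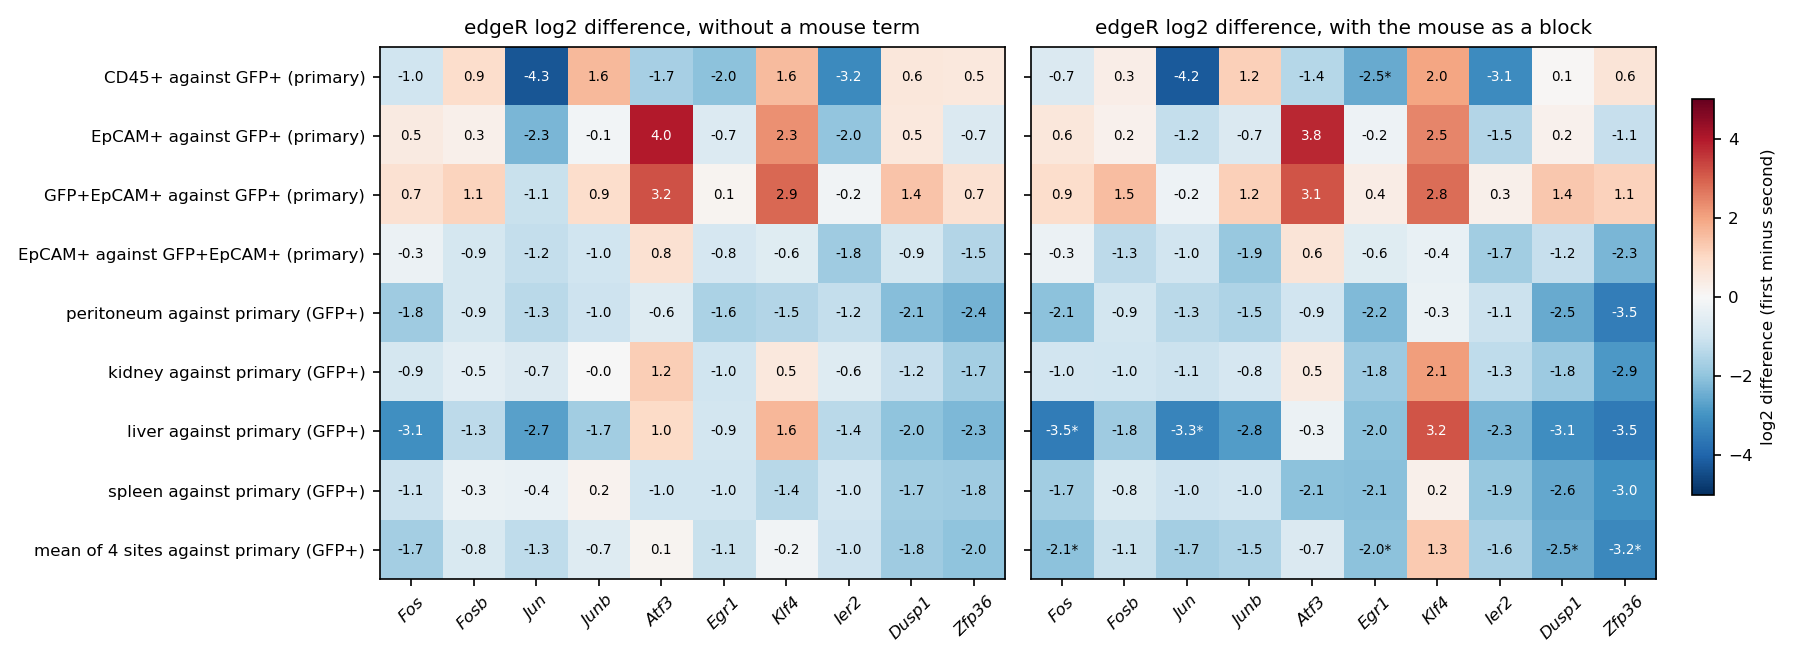
edgeR log2 difference of each gene (columns) in each comparison (rows), without a mouse term at left and with the mouse as a block at right; asterisks mark adjusted p under 0.05. No value is marked at left, and at right 4 genes are marked for the mean of the sites, 2 for the liver and 1 for CD45+ cells.

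Junb, Egr1 and Zfp36 were lower in mouse 1 than in mice 2 and 3. This difference was fitted after the levels by mouse had been seen, in 1 edgeR model with terms for group and mouse. The model covered the 5 groups with 3 mice, and p-values were adjusted over 20788 genes. Mouse 1 is 1 animal, and its sums over the 5 groups were treated as replicates. The SE and p-values therefore measure scatter between sums of these mice and say nothing about spread between animals. The log2 differences were -5.37 for Junb (SE 0.62, edgeR adjusted p = 1.03e-04), -4.16 for Zfp36 (SE 0.72, adjusted p = 0.0122) and -2.86 for Egr1 (SE 0.47, adjusted p = 0.00828). These 3 of 10 members compare with 0.168% of genes called, 0.13% lower and 0.0385% higher. Without the GFP+ primary sums Zfp36 had an adjusted p of 0.0686 in edgeR, and the other two passed. Jun (-2.98, SE 0.95, adjusted p = 0.131) did not pass, and Klf4 had a positive difference (2.26, SE 0.86, adjusted p = 0.182). Of the 10 members 9 had negative differences (median -1.64, against 0.48 over all genes). Between mice 2 and 3, 0 of 10 members were called (0% of genes), and Junb and Zfp36 differed by 0.09 and 0.04, while Egr1 (1.08) had the 1 unadjusted p under 0.05.

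Without a model, Jun, Junb, Egr1 and Zfp36 of mouse 1 lay below both other mice in each of the 5 groups, or 4 of 10 members against 2.49% of 8909 genes. The largest gaps were those of Zfp36 in the peritoneum (4.16 CPM against 322 and 893 CPM) and Junb in EpCAM+ cells (15.9 CPM against 2624 and 1253 CPM). In CD45+ cells too, Junb of CD45+ cells stood at 181 CPM in mouse 1 and 2916 and 5458 CPM in mice 2 and 3. Several library measures moved with mouse 1. Its kept cells had a median of 10893 to 13472 detected genes per group, against 6920 to 9208.5 in mice 2 and 3. Fibroblast markers had negative differences for 9 of 10 genes (median -2.73, Dcn called) and epithelial markers positive ones for 10 of 12 (median 1.14). Leukocyte markers were negative for 10 of 10 genes (median -2.60), macrophage markers for 9 of 10 (median -2.06) and neutrophil markers for 7 of 7 (median -1.71). Over the 56 CD45+ cells Zfp36, Junb and Egr1 correlated with T and NK cell markers at -0.47, -0.38 and 0.0938 (Spearman). With macrophage markers the values were 0.352, 0.070 and 0.0775, and with neutrophil markers 0.348, 0.297 and 0.508. These values pool the cells of all mice. The part of detected genes, cell make-up, library preparation or handling in the difference was not tested, and mouse 1 and any handling of its samples as a set cannot be told apart.

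**Figure D3:**
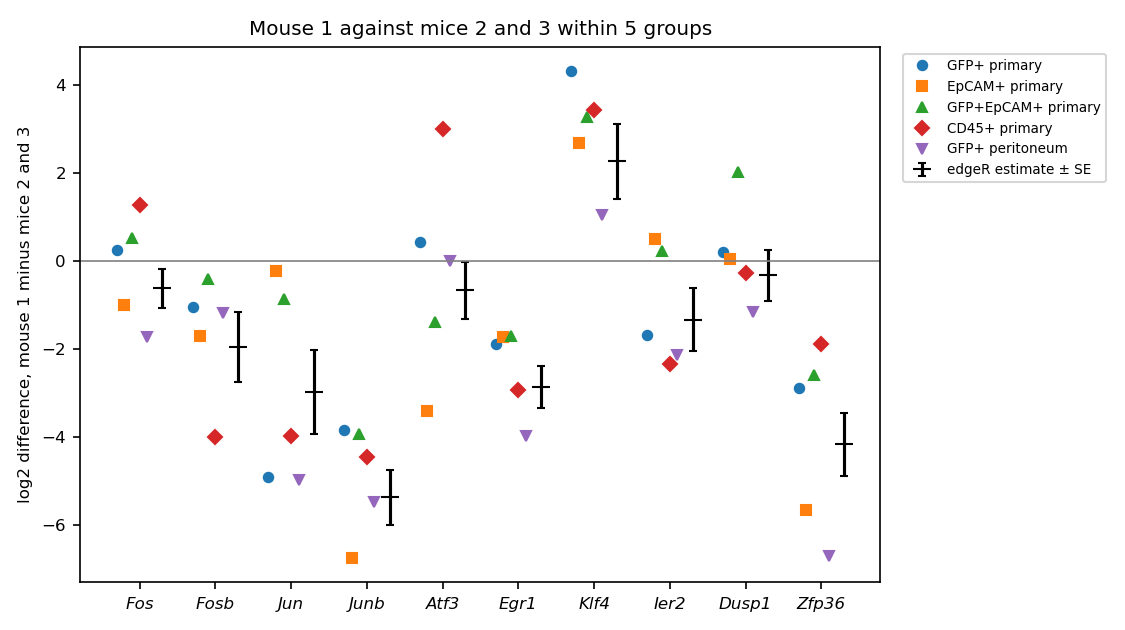
Log2 difference in CPM + 1 between mouse 1 and the mean of mice 2 and 3 for each gene, with a coloured point for each of 5 groups and the edgeR estimate ± SE in black. The SE reflects scatter between sums of these mice, not spread between animals. All 5 points of Junb, Egr1 and Zfp36 lie below 0, and all 5 of Klf4 above.

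Genes of related function, from lists drawn up with earlier results known, were counted in the same contrast. Of 25 other early response effectors, 5 were lower in mouse 1 and none higher: Socs3, a feedback inhibitor of cytokine signalling (-6.83, edgeR adjusted p = 0.00263), Per1, a clock gene that also responds early (-6.51, adjusted p = 0.0179), Zfp36l1, a relative of Zfp36 (-4.18, adjusted p = 0.0197), and Ier3 and Nfkbia, named beyond the 3 lowest p-values to complete the count. Of 19 other early transcription factors 1 was lower, the nuclear receptor gene Nr4a1 (-5.21, adjusted p = 0.00365). None of 9 further AP-1 and related leucine zipper subunits, 13 MAP kinase phosphatases and feedback genes, 23 MAP kinase pathway genes or 11 heat shock genes was called. Their median differences were -1.09, -1.51, -1.35 and -0.64, against 0.48 over all genes. In the comparison of CD45+ with GFP+ cells the matricellular gene Cyr61 (-7.95, adjusted p = 0.00221) and the mitochondrial chaperone gene Hspd1 (-5.32, adjusted p = 0.0256) were lower, 1 each of 25 effectors and 11 heat shock genes. In the mean of the sites against the primary tumour, where 1.48% of genes were lower, 1 gene was lower in each of 3 lists: Batf (-6.09, adjusted p = 0.00840) among leucine zipper subunits, Gadd45a (-3.52, adjusted p = 0.0457) among effectors and the kinase gene Rps6ka3 (-6.11, adjusted p = 1.87e-04) in the MAP kinase pathway. No gene of these lists was called in the other 7 comparisons of sorts or sites.

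To compare cells of unequal depth, 10000 counts were drawn from each cell, so that 1 count equals 100 CPM. The median GFP+ primary cell then had a count of 7 of the 10 genes, the EpCAM+ cell of 6, the GFP+EpCAM+ cell of 8 and the CD45+ cell of 4. The medians were 5 in the peritoneum, 7 in the kidney, 8 in the liver and 8 in the spleen. Of GFP+ primary cells 84.2% had 5 or more members, against 44.6% of CD45+ and 58.8% of peritoneum cells. The peritoneum split by mouse: 25.6% of 39 cells of mouse 1, 91.7% of 24 cells of mouse 2 and 81.8% of 22 cells of mouse 3 had 5 or more. Cells with none of the 10 numbered 2 of 76 among GFP+ primary and 5 of 85 among peritoneum cells, and at most 1 in each other group. In GFP+ cells of mice 2 and 3 the share with 5 or more ran from 75% (liver of mouse 2) to 100%.

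**Figure D4:**
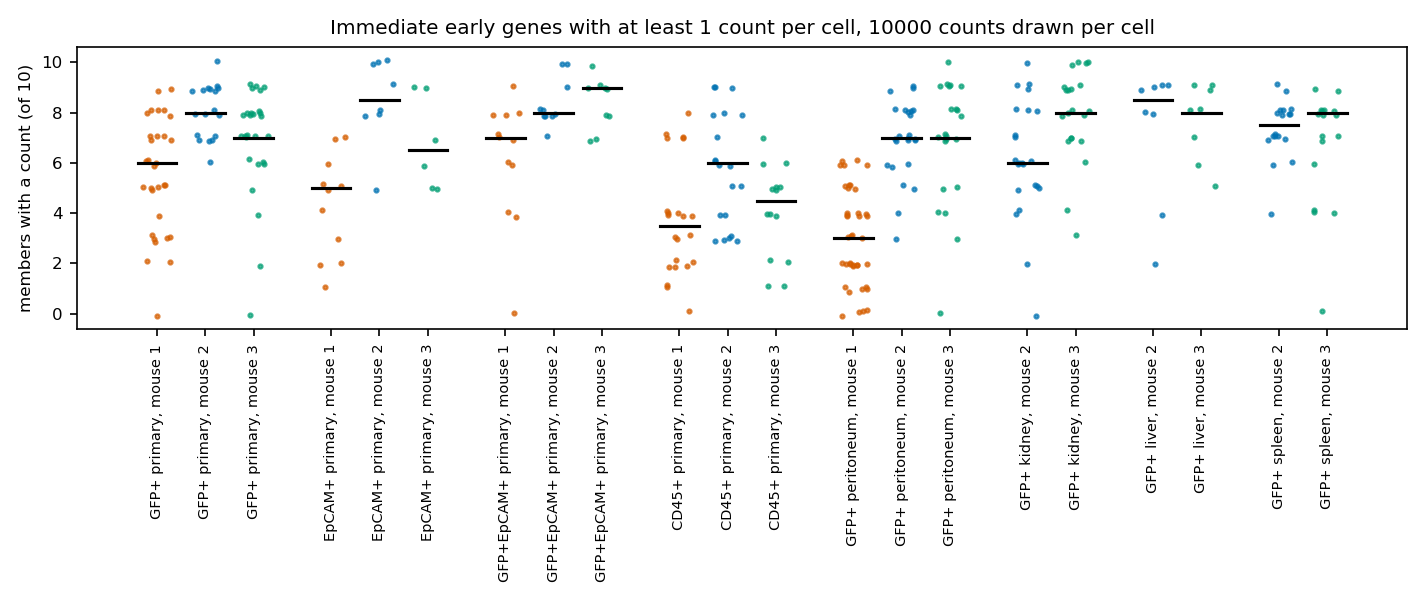
Number of the 10 genes with at least 1 count after 10000 counts were drawn per cell; each point is a cell (jittered), each bar the median of a mouse and group, and colours mark the mouse. Peritoneum cells of mouse 1 centre on 3 genes and those of mice 2 and 3 on 7.

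Detection differed among members. Atf3 was found in 67.7% of GFP+EpCAM+ cells (95% exact binomial interval 48.6 to 83.3%), 60% of EpCAM+, 48.7% of GFP+ (37 to 60.4%) and 16.1% of CD45+ cells (7.62 to 28.3%). Without drawing, the shares were 100%, 100%, 96.1% and 57.1%. Jun was found in 57.9% of GFP+ and 21.4% of CD45+ cells, and in 85.7% of spleen cells, where mouse 1 has none. At 100 CPM or more it was present in 12.9%, 88.9% and 88.9% of GFP+ primary cells of mice 1, 2 and 3, and in 88.9% and 82.4% of spleen cells of mice 2 and 3. Klf4 was found in 14.3% (spleen) to 40% (EpCAM+) of cells. Egr1 was found in 64.3% of CD45+ cells and in 78.8% to 100% of the other groups. Reads of genomic DNA that fall in exons count as RNA in this design, so a background was read from genes of other cells: Ptprc was found in 57.1% of CD45+ cells and 0 to 5.71% of the other groups, and Cd3e in 12.5% and 0 to 6.25%. Other markers were found more widely outside their sort: the macrophage gene Lyz2 in 66.1% of CD45+ but also 32% of EpCAM+, 38.6% of kidney and 43.8% of liver cells, and Epcam in 21.4% of CD45+ cells. The shares of Jun (21.4%) and Atf3 (16.1%) in CD45+ cells are at or below that of Epcam there. They lie above those of the collagen gene Col3a1 (8.93%) and of Alb (1.79%). Jun stood at 1000 CPM or more in 3 of the 56 CD45+ cells and Atf3 in 2. Whether the counts of Jun and Atf3 there are background was not tested. Median depth before drawing was 784903 counts in CD45+ and 1614520 in GFP+ primary cells. Intervals cover counting error only.

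Within a group the members varied together from cell to cell, less so within some mice. The median Spearman correlation over the 45 pairs ran from 0.198 in 56 CD45+ cells to 0.452 in 85 peritoneum cells, against 0.0495 to 0.125 for pairs of all genes. In GFP+ primary cells it was 0.240 over all 76 cells and 0.179, 0.335 and 0.326 within mice 1, 2 and 3, where pairs of all genes had 0.146, 0.0690 and 0.0930. In the peritoneum it was 0.314, 0.186 and 0.313 within mice (all genes 0.199, 0.122 and 0.0604), below the pooled 0.452. In the spleen it was 0.0093 within mouse 2, below the 0.0465 of all genes, and 0.426 within mouse 3 (all genes 0.0672). Junb and Zfp36 formed the closest pair (mean over 8 groups 0.658, range 0.347 to 0.850), followed by Junb and Egr1 (0.574). Klf4 stood apart, with a mean of -0.14 with Junb and 0.29 with Fosb. These pair values pool the cells of all mice in a group, and levels of Junb, Zfp36, Egr1 and Klf4 differed by mouse. Values of single pairs within a mouse are not given, and the part of the mouse in them was not tested. Cells of a group share mice, sequencing and scaling to their own totals, and the correlations are descriptions.

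**Figure D5:**
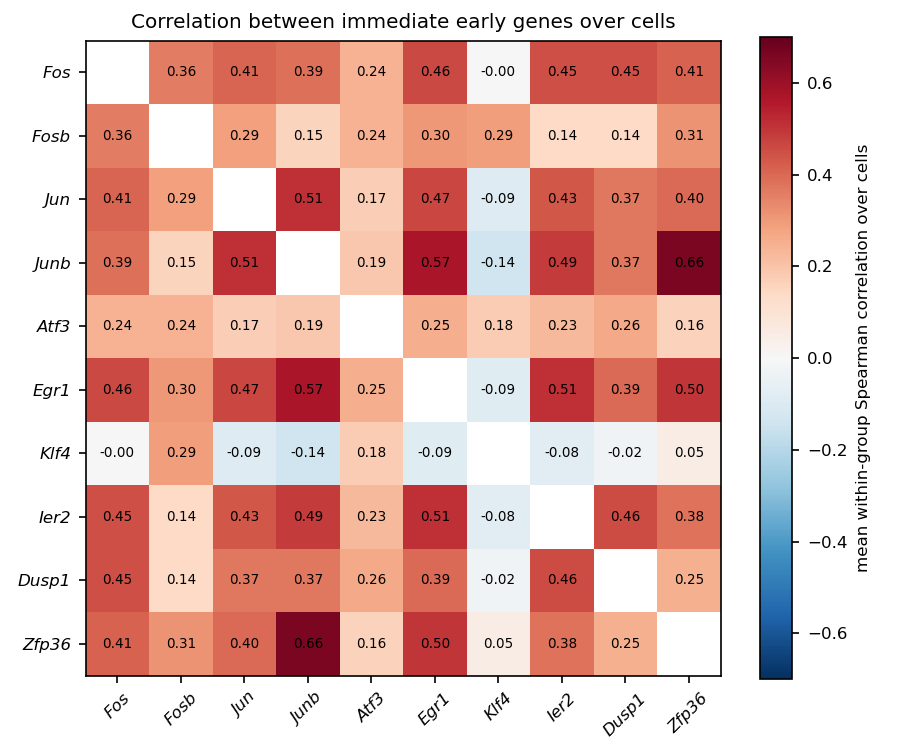
Spearman correlation of CPM over cells between each pair of the 10 genes, with the mice of a group pooled and values averaged over the 8 groups. Junb with Zfp36 is highest at 0.66, and the row of Klf4 holds the values below 0.

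Of 8632 other genes, those that varied most like the mean of the members over cells were Jund (0.513), Nr4a1 (0.508), Nfkbia (0.507), Ier3 (0.503), Socs3 (0.465) and Zfp36l1 (0.452), as the mean Spearman correlation over 8 groups. Over the 21 sums of mice and groups they included Poglut1 (0.734), Ptbp1 (0.732), Nr4a1 (0.725) and Sf3b4 (0.708), by Pearson correlation. Nr4a1 appears in both. For the genes alike over cells, the lowest value in a group ran from 0.0798 (Jund) to 0.384 (Nfkbia). All correlations over cells in this paragraph pool the mice of a group. Nr4a1, Nfkbia, Ier3, Socs3 and Zfp36l1 were also called lower in mouse 1, and the part of the mouse in these values was not tested. Cell make-up and stress genes moved with the members in some groups. Epithelial markers correlated with the member mean at 0.788 in 25 EpCAM+ and 0.525 in 31 GFP+EpCAM+ cells, and at -0.31 in GFP+ primary cells. Fibroblast markers did so at 0.590 in GFP+ primary and 0.607 in peritoneum cells, and heat shock genes at 0.662 in peritoneum cells. In CD45+ cells leukocyte markers did so at 0.475. Total counts per cell correlated with the member mean at -0.32 (liver) to 0.232 (GFP+ primary). The part of any of these in the members' levels was not tested.

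Bulk libraries gave the same genes without replicates. GFP+ primary bulk held 35 CPM of Junb in mouse 1 and 511 CPM in mouse 2, 34.6 and 913 CPM of Zfp36, and 14.3 and 120 CPM of Jun. Egr1 did not share that gap, at 2545 and 2573 CPM, nor did Dusp1, at 1851 and 2951 CPM. GFP+ peritoneum bulk of mouse 1 held 6.57 CPM of Junb, 14.2 CPM of Zfp36 and 225 CPM of Egr1. The CD45+ bulk library of mouse 1 had 121118 counts and none of Zfp36, where 3 counts would be 24.8 CPM. The GFP negative primary bulk had only 8520 counts and is not read further.

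The DNA of the same cells gave the relative DNA level of the chromosomes that carry the members, as reads per chromosome relative to the CD45+ median in 318 cells with at least 50000 DNA reads. Chromosome 12 (Fos) stood at 0.747 in GFP+ primary and 0.707 in spleen cells, chromosome 4 (Jun and Klf4) at 0.758 and 0.779, and chromosome 7 (Fosb and Zfp36) at 0.783 and 0.869. Chromosome 17 (Dusp1) stood at 1.12 and 1.15, and chromosome 8 (Junb and Ier2) at 0.999 and 0.988. Within groups, the chromosome's DNA level and the member's CPM correlated over cells at a median of 0.0739 over 70 pairs of gene and group (-0.44 to 0.512). The highest and the lowest value both belonged to Junb, at 0.512 in 74 peritoneum cells and -0.44 in 62 GFP+ primary cells. These correlations pool cells of all mice, and in the peritoneum both the DNA level of chromosome 8 (mouse medians 0.774 to 0.983) and Junb differed by mouse. Correlations within a mouse were not computed. Chromosome 18 (Egr1) stood at 0.839 in GFP+, 1.07 in EpCAM+ and 1.15 in GFP+EpCAM+ cells.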

How the data were processed

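The authors deposited RNA in expected counts for each gene (97.4% of values whole) and DNA as read counts in 5000 bins. Per the series' design text, exonic reads of the mixed library were taken as RNA and the others as DNA. Per the submitters' processing notes, STAR, kallisto, Bowtie 1.0 and build mm9 were used, with roles not given in the sources used here. Sequence and promoter positions come from RefSeq on GRCm38.p6, and no coordinate of the files was mixed with them. Of 24520 rows, 92 spike-ins and 4 repeated symbols were left out. The kept cells of a mouse and group were added up, rounded and tested with edgeR 4.0.16 (TMM, default gene filter, quasi-likelihood, Benjamini-Hochberg adjusted p at 0.05) in 1 fit of the 4 primary sorts and 1 of GFP+ cells of all sites; limma 3.58.1 and DESeq2 1.42.0 served as alternatives. The fits were tested on simulated data, and the outcome is not given here. The spread of a gene between sums of a group, relative to its level, was wide. As edgeR's common coefficient of variation it was 1.16 for the sorts and 1.08 for the sites. A member that was not called may still differ. Mouse numbers pair sums of the same animal (median correlation of deviations between sums of a mouse 0.0619 in sorts and 0.0840 in sites), and the fits without that block are the stated main ones. The mice are separate animals, but each sum pools cells of unequal depth. Members and gene lists were chosen with earlier results of these data known. All 10 members are described, log2 differences are given for members that pass or for up to 3 with the smallest p, and list genes for up to 3 that pass. Contrasts between mice were added after the levels were seen. Some genes alike to the members over the sums are not reported here.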

Additional observations from a re-analysis of the deposited data

How the results depend on the processing

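In all 9 comparisons of sorts and sites 0 of 10 members were called by edgeR, and the alternatives were DESeq2, scaling without TMM, no gene filter, a stricter cell filter (2000 genes and 50000 counts), cells weighted alike, a fit of only the groups compared (not possible for the mean of 4 sites), the replicate block, leaving out the largest cell of each sum, keeping the near-identical libraries apart and leaving out each mouse. For CD45+ against GFP+ cells the count was 4 with cells weighted alike at log2(CPM+1), 5 at log2(CPM+0.1) and 1 with the replicate block. DESeq2 gave 1 for EpCAM+ and 1 for GFP+EpCAM+ against GFP+ cells. The replicate block gave 2 for the liver and 4 for the mean of 4 sites, where leaving out the largest cells gave 1; it changed no other count. Leaving out a mouse gave 0 to 1 for the mean of 4 sites (1 without mouse 2, Dusp1) and 0 elsewhere. For mouse 1 against mice 2 and 3, tried after seeing the data, the count of 3 became 6 with DESeq2 and 5 with cells weighted alike at either pseudocount, stayed 3 without mouse 2 or mouse 3, and was 2 without GFP+ primary cells. All genes called in CD45+ against GFP+ cells numbered 161, 1904 with DESeq2, 49 without mouse 2 and 19 without mouse 3. For the mean of 4 sites they numbered 329, and 0 with cells weighted alike, 135 without TMM, 141 with the block and 192 without mouse 2. For mouse 1 they numbered 35, and 10 to 93 when a mouse, a group or the largest cells were left out, 605 without TMM, 3033 with DESeq2, and 4564 and 8387 with cells weighted alike, so the larger member counts there stand against many more genes. Scaling moved the median of all genes: for mouse 1 from 0.48 to 1.02 without TMM, and for CD45+ cells from 0.20 to 1.09 with DESeq2. Signs turned for Dusp1 (EpCAM+ against GFP+EpCAM+, from -1.92 without mouse 3 to 0.498 without mouse 1) and, with cells weighted alike at log2(CPM+1) and log2(CPM+0.1), for Egr1 in the kidney (0.0946 and 0.0961) and spleen (0.542 and 0.543), Jun in the liver (0.943 and 1.49) and Zfp36 in the spleen (0.0390 and 0.171); the cause was not tested. In fits without a mouse, a lone sum is assumed to vary like the other groups. Depth limits the liver most, with 16 cells.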
